A study of Mus musculus with 6 samples.

Results

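The proteasome is the protease complex that degrades ubiquitin-tagged proteins, and its subunit genes were followed here in neural stem cells of 3 Ecrg4 genotypes. Members were all array probes whose annotated gene symbol is Psm, then a letter from a to g, then a number. This rule found 40 probes for 40 genes among the 23466 probes of the array, and all 40 had a value on all 6 arrays. The cells were neural stem cells, multipotent progenitors that self-renew in culture, from the brains of C57BL6 mice at age P0. Ecrg4, which encodes a small secreted peptide precursor, was labelled wild type (Ecrg4 wt), heterozygous (Ecrg4 hetero) or homozygous (Ecrg4 homo), with 2 arrays per label. All 3 groups grew in DMEM/F12 to which bFGF, EGF and heparin were added, with no treatment. The labels do not say how the allele was altered, nor whether both arrays of a label stem from different mice or different dishes. A p-value below therefore reflects array-to-array spread alone, and that spread may be technical.

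The core particle is a barrel of stacked rings. The outer alpha rings (Psma genes) gate the entrance and the inner beta rings (Psmb genes) carry the protease sites of Psmb5, Psmb6 and Psmb7. The regulatory particle caps the barrel: its base holds the Psmc ATPases, which unfold the substrate, and its lid, of Psmd subunits, removes ubiquitin. Interferon induces Psmb8, Psmb9 and Psmb10, which replace Psmb5, Psmb6 and Psmb7 and form the immunoproteasome, a variant that cuts peptides for display on MHC class I. Neural stem cells depend on the proteasome to clear cell-cycle and fate regulators.

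By role, the members were 7 alpha ring genes, 6 constitutive beta ring genes, 3 immunoproteasome genes, 6 base ATPases, 3 other base subunits, 8 lid subunits, 3 activators or inhibitors and 3 assembly chaperones. Psmc3ip, the remaining member, only shares the symbol pattern: its product acts in meiotic recombination. Psma5, Psmb3, Psmb11, Psme2, Psme3 and Psmg4 were not analysed here, so the partner of Psme1 in its ring has no value. RefSeq lists pseudogenes named for Psmb5, Psmb6 and Psmb7, and whether the probes separate them from the genes is not known.

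Promoters are shown for the inducible Psmb9 and Psmb8 and the constitutive partners Psmb6 and Psmb5, each with a motif match. They are RefSeq sequences of build GRCm38.p6, upstream of the annotated start, written 5′ to 3′ on the strand of the gene, and capitals mark motif matches. Psmb9 lies back to back with Tap1, the peptide transporter gene of the MHC class I pathway, and the window shown for it is the whole stretch of 225 bases between both starts (chr17:34187331-34187555, minus strand). Its capitals are a CCAAT box read on the opposite strand (ATTGG). The windows of Psmb8 (chr17:34197945-34198194, plus strand), Psmb6 (chr11:70525107-70525356, plus strand) and Psmb5 (chr14:54617996-54618245, minus strand) hold 250 bases each.
Psmb9: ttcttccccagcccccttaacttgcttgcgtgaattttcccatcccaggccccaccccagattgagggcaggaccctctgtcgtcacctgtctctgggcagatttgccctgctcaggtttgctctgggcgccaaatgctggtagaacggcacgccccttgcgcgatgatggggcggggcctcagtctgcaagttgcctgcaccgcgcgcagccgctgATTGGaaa
Psmb8: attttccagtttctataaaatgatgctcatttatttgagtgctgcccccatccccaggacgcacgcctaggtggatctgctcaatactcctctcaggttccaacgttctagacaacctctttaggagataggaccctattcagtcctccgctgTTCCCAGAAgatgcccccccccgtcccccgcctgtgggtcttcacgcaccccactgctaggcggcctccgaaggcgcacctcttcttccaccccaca
Psmb6: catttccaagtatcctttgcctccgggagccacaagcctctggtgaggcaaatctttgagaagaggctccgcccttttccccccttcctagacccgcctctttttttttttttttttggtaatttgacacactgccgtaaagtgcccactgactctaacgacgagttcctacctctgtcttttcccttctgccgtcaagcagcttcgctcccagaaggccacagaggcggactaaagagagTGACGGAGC
Psmb5: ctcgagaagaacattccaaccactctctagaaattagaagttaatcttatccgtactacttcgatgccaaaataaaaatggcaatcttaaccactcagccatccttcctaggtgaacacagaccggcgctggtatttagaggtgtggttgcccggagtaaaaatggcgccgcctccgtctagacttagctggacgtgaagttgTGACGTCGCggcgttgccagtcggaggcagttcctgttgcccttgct
The capitals mark a gamma-activated site (TTCNNNGAA) in Psmb8 and the core of the antioxidant response element (TGACNNNGC) in Psmb6 and Psmb5. The window of Psmb10, the other inducible gene, held 0 motif matches and is not shown.

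Motifs were searched on both strands of the 250 bases before each start, for the 33 member genes with a window. The antioxidant response element core, the kind of site read by the factors Nfe2l1 and Nfe2l2, was present in 5 of them (15.2%), namely Psmb5, Psmb6, Psmc6, Psmd12 and Psmd9, and in 11.5% of 27025 genes. The gamma-activated site occurred in 1 member (3.03%), against 8.13% of all genes. The interferon-stimulated response element core (GAAA, any 2 bases, GAAA) was found in Psmd4 and Psmd9 (6.06%, against 3.46%), and the CCAAT box in 12 members (36.4%, against 37.5%). A gene with several starts counted once if any window held the motif. The letters occurred in the members about as in other promoters, and a match here is a description and not a binding site.

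Series-wide, the deposited values were 1-colour intensities with a median of 30 on every array. The 95th percentile of 663 olfactory receptor gene probes, which lay between 50.5 and 57.6 per array, served as a reference for background. Ecrg4 read 1.4 and 1.3 in the arrays labelled homozygous, 112.9 and 154.9 in wild type and 345.5 and 373.9 in heterozygous. The homozygous label thus matched the targeted gene, while the order of the other labels did not follow the number of unaltered alleles. All 8 measured stem cell markers, Sox9 and Nes among them, exceeded the background reference on all 6 arrays, and all 5 measured neuron markers lay under it throughout. Of the proteasome probes, 37 exceeded the reference on all 6 arrays (92.5%, against 40.8% of the 20434 probes tested). The other 3 were Psma8, Psmb8 and Psmb9.

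No proteasome gene passed the threshold in any comparison of the genotypes. Between homozygous and wild type, 0 of 40 probes had a limma adjusted p under 0.05, where 0.920% of all tested probes were called (n = 2 arrays each). The background was 0.749% between heterozygous and wild type and 2.69% between homozygous and heterozygous, with 0 members called in both. The moderated F test over the 3 genotypes called 2.26% of all probes and 0 members. At an unadjusted p under 0.05, 4 members stood out between homozygous and wild type (background 19.0%), 3 between heterozygous and wild type (13.5%) and 2 between homozygous and heterozygous (18.2%). These shares of 10%, 7.5% and 5% lay below the background in each comparison.

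The size of the differences was also small. The members' median log2 fold change was 0.039 between homozygous and wild type, with 24 of 40 above 0, beside 0.019 and 52.2% over all probes. It was 0.081 between heterozygous and wild type (26 of 40, beside -0.012 and 48.6%) and -0.00018 between homozygous and heterozygous (20 of 40, beside 0.039 and 54.5%). The median size without regard to sign was 0.17, 0.15 and 0.14 in these comparisons. Over probes above the background reference on all 6 arrays it was 0.22, 0.18 and 0.19, and over all probes 0.25, 0.22 and 0.23. Beyond 0.5 on the log2 scale lay 3, 2 and 1 members (7.5%, 5% and 2.5%), against 20.3%, 16.2% and 19.0% of all probes. Of the 8347 probes above the background reference on all 6 arrays, 1209, 693 and 1100 did so.

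**Figure D1:**
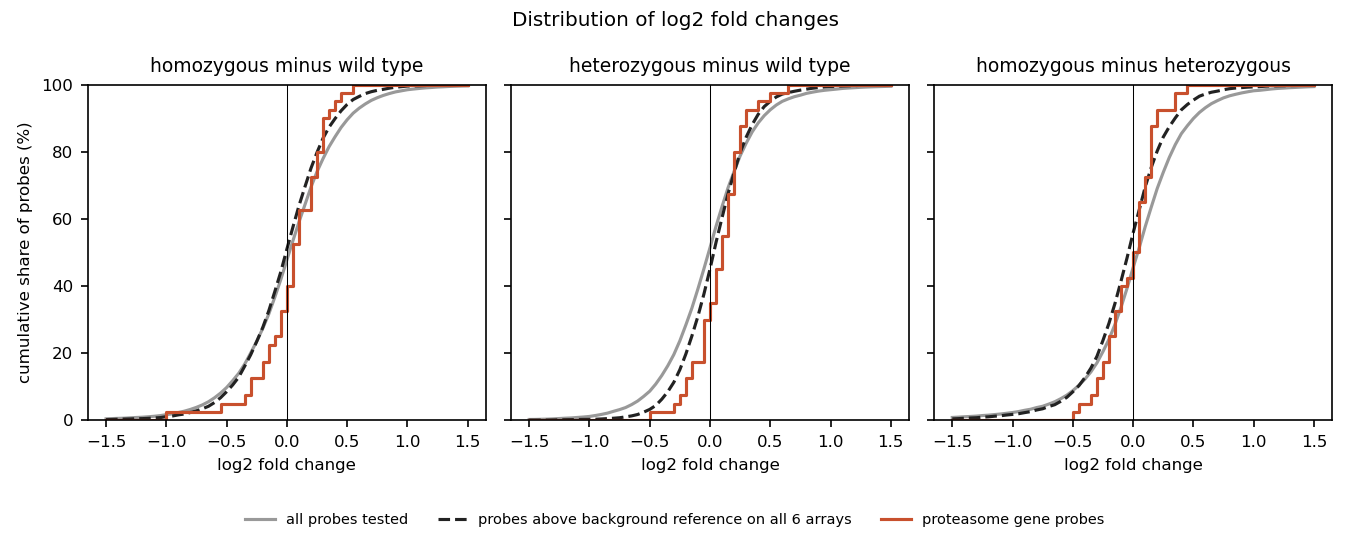
Cumulative share of probes (%, vertical) at or below each log2 fold change (horizontal) for the 3 comparisons, over all 20434 probes tested (grey), the 8347 probes above the background reference on all 6 arrays (dashed) and the 40 proteasome probes (red). The red line rises steeply around 0, with 3, 2 and 1 members beyond 0.5 in either direction.

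The intervals bound the differences in intensity. The 95% interval of the limma fit lay within 2-fold in either direction for 36 of 40 members between homozygous and wild type, for 38 between heterozygous and wild type and for 40 between homozygous and heterozygous. The same held for 73.3%, 76.0% and 74.6% of all probes and for 86.8%, 90.5% and 87.9% of those above the background reference. Within 1.5-fold lay 24, 25 and 25 members. The counts within 2-fold include Psma8 and Psmb8, and Psmb9 in the last comparison, whose values lie in the background range, where the interval sets no limit on the change of the transcript. The members whose interval reached 2-fold were Psmb7, Psmb9, Psmb10 and Psmd9 against wild type in homozygous cells, and Psmb9 and Psmd10 in heterozygous cells. A missing call does not show equal levels, and for these genes a change of 2-fold is not outside the interval.

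**Figure D2:**
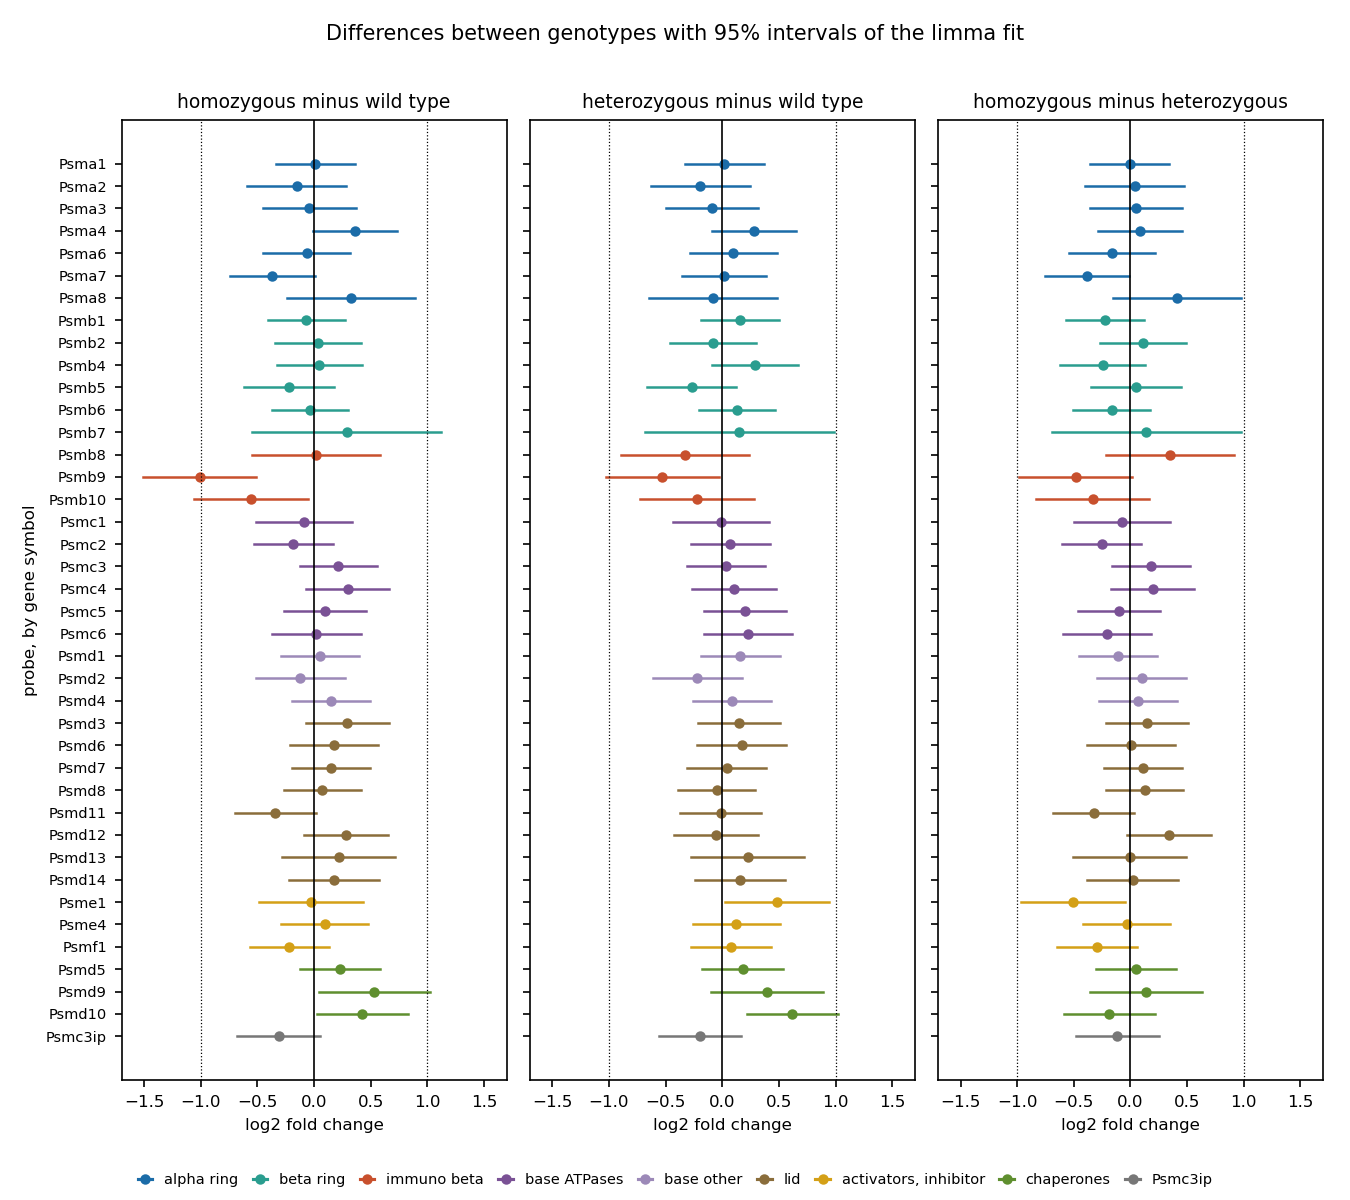
Log2 fold change (horizontal, dots) with its 95% interval from the limma fit (lines) for each of the 40 probes (vertical, coloured by role), in 3 panels for the 3 comparisons. Dotted lines mark 2-fold. Psmb9 has the value farthest from 0 (-1.01 between homozygous and wild type), and Psmb7 has the widest interval.

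Between homozygous and wild type, the immunoproteasome genes Psmb9 and Psmb10 stood farthest from 0, and Psmb8 did not. Psmb9, the inducible partner of Psmb6, read 52.4 and 68.1 with wild type, 40.4 and 42.5 with the heterozygous and 33.8 and 26.0 with the homozygous label. The 3 genotypes did not overlap, with wild type highest and homozygous lowest. The log2 fold change was -1.01 ± 0.21 (SE) between homozygous and wild type (limma adjusted p = 0.0864, n = 2 arrays each), with an interval from -1.51 to -0.51. It was -0.53 ± 0.21 between heterozygous and wild type (limma adjusted p = 0.348) and -0.48 ± 0.21 between homozygous and heterozygous (limma adjusted p = 0.288). Leaving out wild-type array 2 moved the heterozygous value to -0.34, and leaving out homozygous array 2 moved the last to -0.29. Over 15 alternative settings the first of these adjusted p-values ranged from 0.0172 to 0.369. An intensity trend with a robust prior gave 0.0172, in a fit that called 5.35% of all probes (0.92% in the main fit). A pseudocount of 16 gave 0.0294 (log2 fold change -0.73), in a fit that called 5.59%. Both settings took Psmb9 past the threshold. Of its 6 values, that of wild-type array 2 alone exceeded the background reference. With the homozygous arrays set at that reference, the wild-type mean was 1.11-fold higher. This is no lower bound, since wild-type array 1 itself lay under its reference of 53. The measured 2.02-fold rests on values in the background range.

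Psmb10, the inducible partner of Psmb7, was above the background reference on all 6 arrays. Its intensity was 303.8 and 399.5 in wild type, 335.1 and 266.8 in heterozygous and 253.8 and 221.7 in homozygous cells. The homozygous arrays lay below the other 4, while wild type and heterozygous overlapped. The log2 fold change between homozygous and wild type was -0.55 ± 0.21 (interval -1.06 to -0.052, limma adjusted p = 0.229), and leaving out wild-type array 1 or 2 gave -0.75 or -0.36. Psmb8, the inducible partner of Psmb5, gave intensities of 22.4 and 32.6, 18.8 and 24.6, and 26.9 and 27.8 in the same order, under the background reference on all 6 arrays. Homozygous minus wild type was 0.017 ± 0.23 on the log2 scale for Psmb8, with an interval from -0.55 to 0.58.

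**Figure D3:**
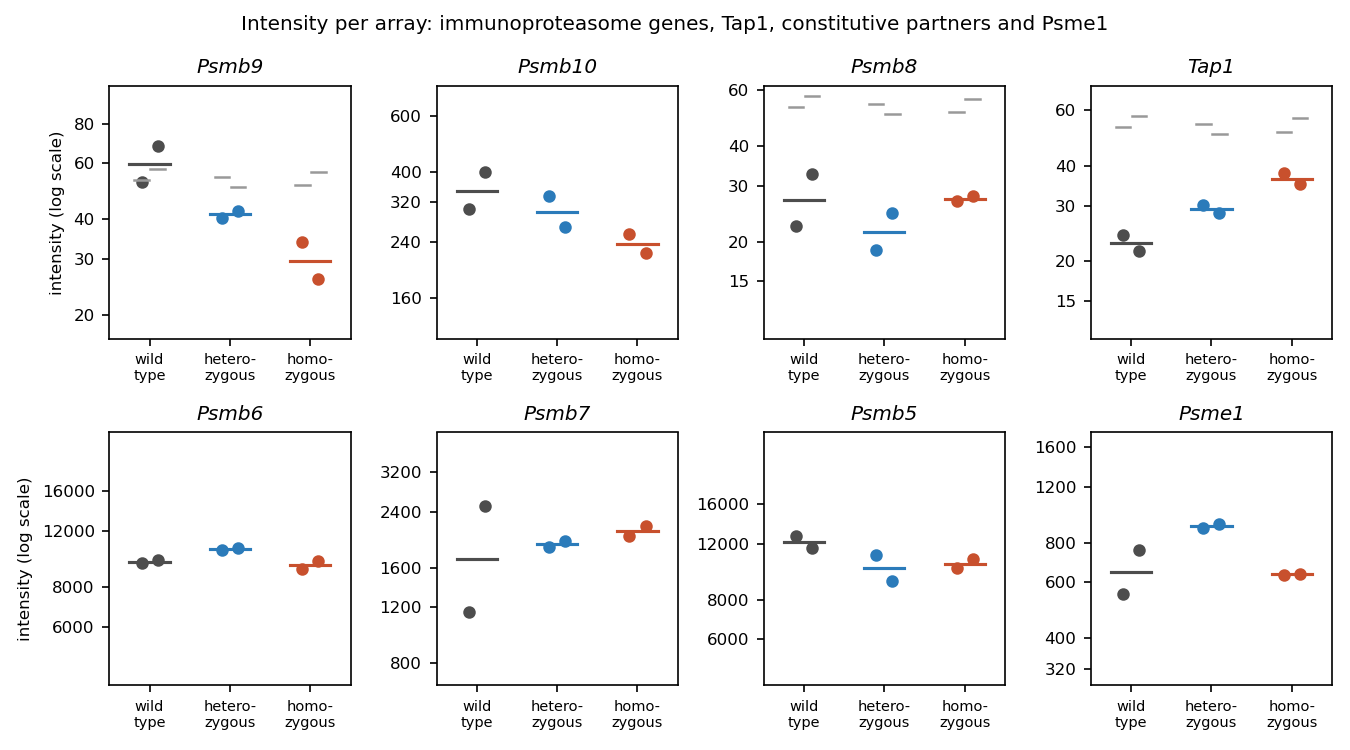
Intensity (vertical, log scale) of Psmb9, Psmb10, Psmb8, Tap1, Psmb6, Psmb7, Psmb5 and Psme1 on each array, by genotype label (horizontal). Dots are arrays, coloured bars are geometric means of 2 arrays, and short grey lines, where they fall in the range, are the background reference of that array. Psmb9 is highest in wild type and lowest in homozygous cells while Tap1 has the opposite order, and all values of both but 1 lie under the grey lines.

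The constitutive partners gave smaller differences for Psmb6 and Psmb7, and not for Psmb5, between homozygous and wild type. Psmb6, which carries the caspase-like site, gave 9499 and 9695 in wild type, 10431 and 10581 in heterozygous and 9104 and 9637 in homozygous cells, and the log2 fold change between homozygous and wild type was -0.035 ± 0.14. Psmb5, with the chymotrypsin-like site and the target of proteasome inhibitor drugs, gave 12670.4 and 11617, 11047 and 9152, and 10078 and 10740.3 in that order. Both wild-type arrays of Psmb5 lay above the other 4, with log2 fold changes of -0.22 ± 0.16 for homozygous and -0.27 ± 0.16 for heterozygous against wild type (limma adjusted p = 0.496 and 0.483). Psmb7, with the trypsin-like site, gave 1161 and 2509 in wild type, 1852 and 1935 in heterozygous and 2015 and 2159 in homozygous cells. The wild-type arrays of Psmb7 differed by 1.11 on the log2 scale, the widest replicate gap of the 40 members in the 3 genotypes. Its fold change between homozygous and wild type was 0.29 ± 0.34 on the log2 scale. Leaving out wild-type array 1 gave -0.27, and leaving out wild-type array 2 gave 0.84 (limma adjusted p = 0.0683).

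Within each array, the log2 difference of an inducible gene and its partner was set against its mean over 6 arrays. For Psmb9 and Psmb6 it was 0.37 and 0.72 in wild type, -0.14 and -0.087 in heterozygous and -0.20 and -0.66 in homozygous arrays, so wild type stood above the rest. For Psmb10 and Psmb7 it was 0.76 and 0.046, 0.23 and -0.16, and -0.29 and -0.59 in the same order, and the high value of wild-type array 1 came with its low Psmb7. For Psmb8 and Psmb5 it was -0.39 and 0.27, -0.45 and 0.21, and 0.20 and 0.16. Array 1 of wild type and of heterozygous was low for that pair and the other 4 were close together. Psmb8 lay under the background reference on all 6 arrays, and Psmb9 exceeded it in wild-type array 2 alone. The differences of these pairs therefore rest on values in the background range.

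In the alpha ring and the rest of the beta ring 0 genes passed the threshold. Among the 7 alpha ring genes the log2 fold change between homozygous and wild type ran from -0.37 (Psma7) to 0.36 (Psma4), with 3 above 0. Psma7 gave 3439 and 3894 in wild type, 3926 and 3483 in heterozygous and 2838 and 2828 in homozygous cells. The homozygous arrays of Psma7 lay below the other 4 (limma adjusted p = 0.267 against wild type and 0.264 against heterozygous). The interval ran from -0.74 to 0.0043 against wild type and from -0.76 to -0.011 against heterozygous. Psma4 gave 2096 and 2346, 2527 and 2869, and 2865 and 2844 from wild type to homozygous, with wild type lowest. Between homozygous and wild type its limma adjusted p was 0.271, with an interval from -0.0081 to 0.74. Psma2 gave 3040.3 and 2683, 2805 and 2226, and 2419 and 2720.5, with overlap between all labels. Psma8, the alpha subunit of the testis form, gave 3.1 and 4.8, 3.9 and 3.4, and 5.0 and 4.7, far under the background reference. The log2 fold changes of Psma1, Psma3 and Psma6 between homozygous and wild type were 0.013, -0.041 and -0.066.

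Of the structural beta ring genes, Psmb4 gave 8438 and 9006 in wild type, 10101 and 11236 in heterozygous and 9589.5 and 8446 in homozygous cells. The heterozygous arrays of Psmb4 lay above the other 4 (0.29 ± 0.16 against wild type, limma adjusted p = 0.446). Psmb1 and Psmb2 differed by -0.068 ± 0.14 and 0.033 ± 0.16 between homozygous and wild type. The median over the 13 core probes outside the immunoproteasome, Psma8 included, was -0.035 in that comparison. Its sign depended on the scaling: it was 0.11 with quantile normalization, 0.10 with cyclic loess and -0.090 with median centring.

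**Figure D4:**
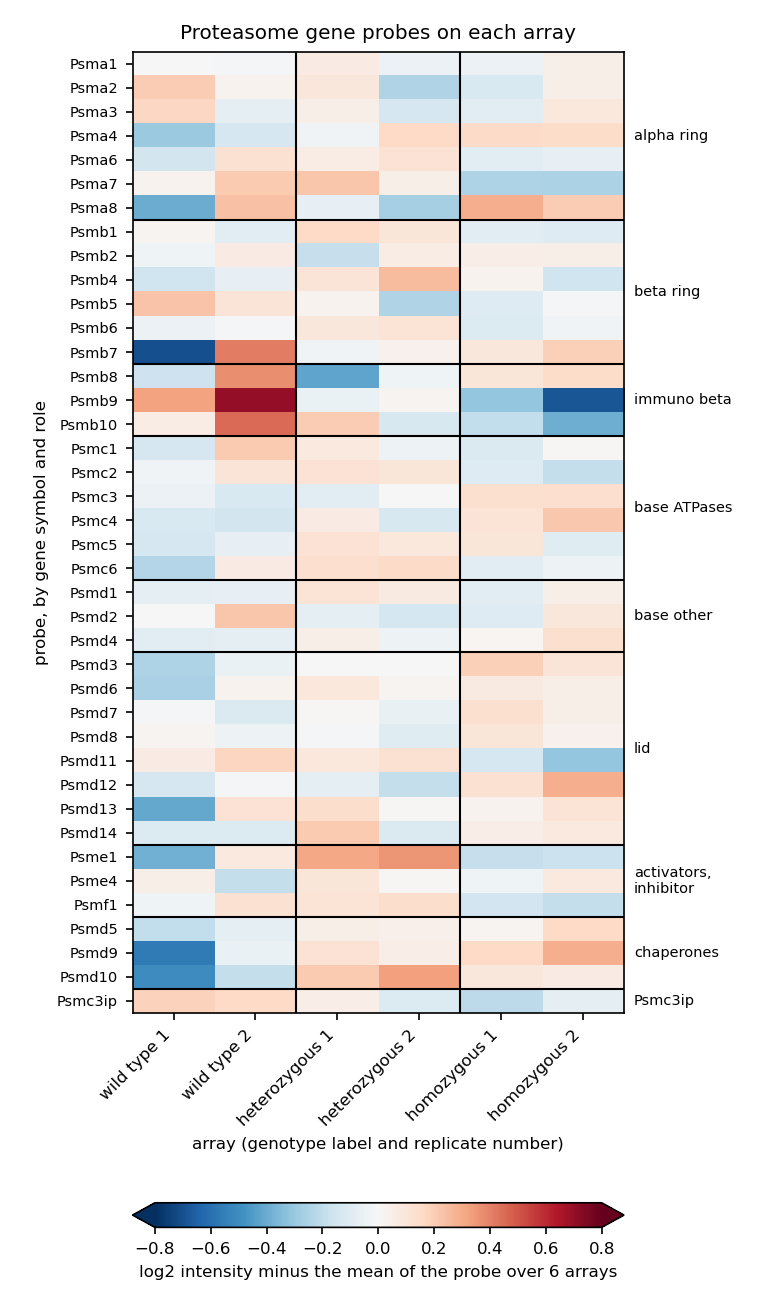
Log2 intensity of each of the 40 probes (rows, grouped by role) on the 6 arrays (columns) minus that probe's mean over the arrays, in colour. The immunoproteasome genes Psmb9 and Psmb10 are high in wild-type array 2 and low in the homozygous arrays, Psmb7, Psmd9 and Psmd10 are low in wild-type array 1, and Psme1 is high in both heterozygous arrays.

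The 17 regulatory particle genes among the members had log2 fold changes from -0.34 to 0.30 between homozygous and wild type. The 6 base ATPases had log2 fold changes from -0.18 (Psmc2) to 0.30 (Psmc4) between homozygous and wild type, from -0.015 (Psmc1) to 0.23 (Psmc6) between heterozygous and wild type and from -0.25 (Psmc2) to 0.20 (Psmc4) between homozygous and heterozygous. Psmc4 gave 955.6 and 938.7 in wild type, 1089.8 and 950.0 in heterozygous and 1123 and 1209.5 in homozygous cells. The homozygous arrays of Psmc4 lay above the rest, with a limma adjusted p of 0.339 against wild type. Psmc2 gave 5393 and 5902, 5967 and 5884, and 5123 and 4826 in the same order, with homozygous lowest. Psmc6 gave 2090.2 and 2568, 2696 and 2729.6, and 2314 and 2387, and Psmc1 gave 3943 and 4998, 4581 and 4214, and 3990.2 and 4353. For Psmc6 both heterozygous arrays were highest, and for Psmc1 all labels overlapped. Psmc3 and Psmc5 differed by 0.21 ± 0.14 and 0.10 ± 0.15 between homozygous and wild type.

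Of the other base subunits, the scaffold protein Psmd1 gave 2189 and 2213 in wild type, 2494 and 2427 in heterozygous and 2177 and 2389.5 in homozygous cells, with the heterozygous arrays highest. The scaffold protein Psmd2 gave 1645 and 1916, 1561 and 1491, and 1526 and 1749.5, and the ubiquitin receptor Psmd4 gave 1661 and 1682, 1826 and 1719, and 1788 and 1929. Against wild type the homozygous arrays overlapped for Psmd1 and Psmd2 and lay higher for Psmd4, by 0.15 ± 0.14.

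In the lid, 7 of 8 member genes lay above 0 between homozygous and wild type, with a median of 0.17, and 0 of 8 passed the threshold. The count was 7 under quantile, cyclic loess and median scaling, with medians of 0.25, 0.27 and 0.12, and 6 without wild-type array 1. The exception was Psmd11, which gave 2895 and 3112 in wild type, 2936 and 3004 in heterozygous and 2515 and 2231 in homozygous cells (-0.34 ± 0.15, limma adjusted p = 0.282). Psmd3 had the highest value in that comparison (0.29 ± 0.15), from intensities of 951.0 and 1088, 1126 and 1128, and 1286 and 1211 in the same order, and its homozygous arrays lay above the other 4. Psmd12 gave 1401 and 1518, 1460.4 and 1348, and 1674 and 1881, and its homozygous arrays also lay above the other 4 (0.34 ± 0.15 against heterozygous, limma adjusted p = 0.313). Psmd13 gave 793.9 and 1138, 1163 and 1059.9, and 1076 and 1137, where wild-type array 1 alone was low. Psmd14, the deubiquitinase that strips ubiquitin chains from substrates, differed by 0.18 ± 0.17 between homozygous and wild type (interval -0.22 to 0.57). Psmd6, Psmd7 and Psmd8 differed by 0.17, 0.15 and 0.073 on the log2 scale. Sem1, a lid subunit that is no member by its symbol, gave 6189 and 7036, 7291 and 7387, and 5734 and 5967. Its homozygous arrays lay below the other 4. The log2 fold change was -0.17 ± 0.15 against wild type (limma adjusted p = 0.555) and -0.33 ± 0.15 against heterozygous (limma adjusted p = 0.315).

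Among the activators and the inhibitor, Psme1 had the largest differences in both comparisons with heterozygous cells and the smallest between homozygous and wild type (-0.025 ± 0.19). It encodes a subunit of PA28, the interferon-induced ring that opens the core without ubiquitin. Psme1 gave 551.0 and 758.8 in wild type, 892.3 and 918.1 in heterozygous and 633.7 and 637.3 in homozygous cells, so both heterozygous arrays lay above the other 4. The log2 fold change was 0.49 ± 0.19 between heterozygous and wild type (limma adjusted p = 0.351) and -0.51 ± 0.19 between homozygous and heterozygous (limma adjusted p = 0.234, interval -0.97 to -0.051). Leaving out wild-type array 1 or 2 moved the first of these to 0.25 or 0.72. Psme4, the gene of the activator PA200, gave 80.2 and 67.9, 83.1 and 78.0, and 75.7 and 82.0 from wild type to homozygous, with overlap between wild type and homozygous. Psmf1, the gene of the inhibitor PI31, gave 457.7 and 510.2, 504.8 and 515.2, and 420.8 and 410.6, with the homozygous arrays lowest (-0.22 ± 0.14 against wild type, limma adjusted p = 0.454).

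The assembly chaperones of the base had their lowest values in wild type. Psmd10, also called gankyrin, gave 262.2 and 324.9 in wild type, 430.1 and 465.6 in heterozygous and 395.9 and 389.3 in homozygous cells, and both wild-type arrays lay below the other 4. Its log2 fold change was 0.62 ± 0.17 between heterozygous and wild type (interval 0.21 to 1.02, limma adjusted p = 0.234) and 0.43 ± 0.17 between homozygous and wild type (limma adjusted p = 0.241). Psmd9 gave 211.8 and 301.5, 339.6 and 325.3, and 348.9 and 382.6 in the same order, with 0.53 ± 0.20 between homozygous and wild type (limma adjusted p = 0.236). Psmd5 gave 429.2 and 468.2, 508.8 and 506.1, and 500.8 and 549.8, or 0.23 ± 0.15 in that comparison. Wild-type array 1 was the lowest array for all 3. Without it the median of the 3 was 0.27 in place of 0.43 between homozygous and wild type, and 0.14 in place of 0.40 between heterozygous and wild type. Psmg1, Psmg2 and Psmg3, chaperones of the core that the array lists under older symbols and that are no members here, differed by 0.32 ± 0.20, -0.16 ± 0.16 and -0.16 ± 0.17 between homozygous and wild type. Psmc3ip gave 940.7 and 926.7, 862.3 and 767.5, and 717.3 and 786.7 from wild type to homozygous (-0.31 ± 0.15, limma adjusted p = 0.318).

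Non-overlap between labels was frequent in members and in the background, with shares that differed by comparison and were not tested against each other. Between homozygous and wild type 13 of 40 members (32.5%) were higher on both homozygous arrays (background 25.7%) and 9 (22.5%) were lower (background 24.8%). Between heterozygous and wild type 13 (32.5%) were higher (background 21.0%) and 4 (10%) lower (background 24.5%). Between homozygous and heterozygous 10 (25%) were higher (background 28.7%) and 14 (35%) lower (background 25.9%).

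Among proteins that work with the proteasome 0 genes were called. Their list includes the regulatory particle subunits Adrm1 and Sem1, whose symbols fall outside the rule for members. Adrm1 differed by 0.044 ± 0.20 on the log2 scale between homozygous and wild type. Of 27 listed partners, 20 were tested and 0 passed in any comparison, with 1, 3 and 1 at an unadjusted limma p under 0.05 in the comparisons of homozygous with wild type (background 19.0%), heterozygous with wild type (13.5%) and homozygous with heterozygous (18.2%). The list's median was 0.086, 0.0082 and 0.11 in these comparisons. Nfe2l1, the factor that raises proteasome genes when the complex is inhibited, gave between 252.9 and 310.6 on the 6 arrays, without order. Nfe2l2, the antioxidant factor, gave 285.6 and 250 in wild type, 365.8 and 285.2 in heterozygous and 422.6 and 402.8 in homozygous cells. Wild type and heterozygous overlapped, and homozygous minus wild type was 0.63 ± 0.18 on the log2 scale (limma adjusted p = 0.159). The ubiquitin shuttle Rad23b differed by 0.56 ± 0.15 between homozygous and heterozygous (limma adjusted p = 0.124). Zfand5, a stimulator of the proteasome, differed by 0.68 ± 0.22 between heterozygous and wild type (limma adjusted p = 0.291). The other partners under an unadjusted 0.05 in that comparison, Uba1 and Ddi2, were lower in heterozygous cells. They differed by -0.42 ± 0.17 and -0.54 ± 0.20 (limma adjusted p = 0.362 and 0.33), and Ddi2 lay under the background reference on all 6 arrays.

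Of 13 listed genes of MHC class I presentation, 10 were tested and 0 passed in any comparison, with 1, 2 and 1 at an unadjusted limma p under 0.05, against the same shares of 19.0%, 13.5% and 18.2% over all probes. Tap1, which shares the printed stretch with Psmb9, gave 24.3 and 21.5 in wild type, 30.2 and 28.5 in heterozygous and 38.0 and 35.0 in homozygous cells. Wild type was thus lowest for Tap1 and highest for Psmb9. The difference of Tap1 between homozygous and wild type was 0.67 ± 0.15 (limma adjusted p = 0.107), and all 6 values lay under the background reference. Tapbp, the chaperone of peptide loading, gave 64.8 and 66.6, 86.3 and 105.6, and 71.9 and 73.8 in the same order, highest in heterozygous cells. B2m, the MHC class I light chain, gave 1943 and 3422, 2673 and 2774, and 2605 and 2360.4, with both extremes in wild type (-0.056 ± 0.27 between homozygous and wild type).

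Markers of other cells were set beside these values, since in bulk cultures fewer cells of a type and less RNA per cell cannot be told apart. Of 6 endothelial markers, 4 were blank or read at most 4.3 on every array, and the summed level of all 6 was 143.3 to 203.1 in wild type, 70.0 to 81.1 in heterozygous and 83.4 to 127.3 in homozygous arrays. Most of it was Flt1, which read 113.7 and 170.9, 57.6 and 50.8, and 104.1 and 54.4 in the same order, and like Psmb9 was highest in wild-type array 2. Of 10 microglial markers, 9 lay under the background reference on all 6 arrays and Itgam, Ptprc and Tmem119 were blank on at least 1, with a summed level of 149.6 to 180.7, 153.0 to 185.4 and 181.8 to 205.1. The 5 astrocyte markers summed to 1546 to 2123 in wild type, 3339 to 3395 in heterozygous and 1999 to 2174 in homozygous arrays, and both these sums and Psme1 were highest in heterozygous cells. Most of that sum was Gja1, which gave 1361 and 1860.2, 2917 and 2925, and 1940.3 and 1826 in the same order. Between homozygous and wild type, the log2 fold change was above 0 for Gja1 and below 0 for the other 4. The summed level of the 5 measured oligodendrocyte lineage markers was also highest in heterozygous cells, at 3480 to 4087, 4546 to 5070 and 3544 to 4019. These markers did not move together. Between heterozygous and wild type 3 of 5 log2 fold changes were above 0 (median 0.062, range -0.26 to 0.47). Between homozygous and heterozygous 3 of 5 were above 0 as well (median 0.016). The markers past the limma threshold were the astrocyte gene Aqp4 between homozygous and heterozygous (adjusted p = 0.0333) and 3 microglial genes. P2ry12 was higher in homozygous cells than in wild type (limma adjusted p = 0.0221) and heterozygous (limma adjusted p = 0.0218). Cd14 was lowest in wild type (limma adjusted p = 0.0445 for homozygous and 0.022 for heterozygous), and Cx3cr1 was lower in heterozygous cells than in wild type (limma adjusted p = 0.0374). All 6 values of each of these microglial genes, and 5 of 6 of Aqp4, lay under the background reference, so no fold is given. The part of these cells in the values of Psmb9 and Psme1 was not tested.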

How the data were processed

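The table that the authors deposited holds linear intensity values of a 1-colour array, with a median of 30 on each array. Background correction, scanner settings and the rule for blank cells are, for this table, not given in the sources used here. The labels name biotin, their protocol a coupled dye. Intensities were log2-transformed without a pseudocount. Probes without a blank cell (20434) were fitted with limma 3.58.1 in R 4.3.3, with 1 coefficient per genotype, which left 3 residual degrees of freedom beside a prior worth 3.27. Tests were two-sided, p-values were Benjamini-Hochberg adjusted over all probes tested, and the threshold was 0.05. The value after ± is the standard error from limma, and 95% intervals are unadjusted. The number of arrays limits the precision. Symbols came from the platform annotation, updated through RefSeq (GRCm38.p6), and each member had 1 probe.

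The members, gene lists, background reference and tests were chosen with earlier results of these data known. Named members were those past the threshold, all inducible, activator and inhibitor genes with their partners, and the highest and lowest of each role. Others, and the non-member genes given, were chosen after their values were seen. The scripts were tested on simulated data. No protein sequences were used here.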

Additional observations from a re-analysis of the deposited data

How the results depend on the processing

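The count of proteasome genes called was 0 in all 3 comparisons under every alternative run but 2. Between homozygous and wild type it was 1 with a pseudocount of 16 (5.59% of all probes called). It was also 1 with an intensity trend and robust prior (5.35%), in both cases Psmb9. Over the fits that left out 1 array each it stayed at 0, while the count over all probes ranged from 1 to 224, from 18 to 340 and from 6 to 680 in the comparisons of homozygous with wild type, heterozygous with wild type and homozygous with heterozygous, against 188, 153 and 549. With the trend and robust prior these counts were 1094, 400 and 1357, with a pseudocount of 16 they were 1143, 306 and 1376, and with only probes above the background reference 875, 211 and 998. The members' median moved with scaling. Between homozygous and wild type it was 0.12 with quantile normalization, 0.15 with cyclic loess and -0.016 with median centring, and between homozygous and heterozygous 0.093 with quantile, 0.10 with cyclic loess and -0.043 with median centring. Leaving out 1 array gave medians of -0.0084 to 0.088 between homozygous and wild type, 0.025 to 0.12 between heterozygous and wild type and -0.082 to 0.032 between homozygous and heterozygous. The cause of these shifts was not tested. With the replicate number as a block the count of members was 0 in each comparison and that of all probes 47, 51 and 244. The numbers were not shown to pair the arrays: the gaps between replicates correlated across probes at 0.016, 0.0100 and -0.076 for the 3 pairs of genotypes. Averaging probes of a gene was not run, since each member had 1 probe. A lone array left in a group is assumed to vary like the others. Psmb8, Psmb9 and Psma8 lie in the background range, so the size of their differences depends on an unknown background.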

Other observations

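The median replicate gap of the members was narrower than that of the array at large. The median absolute log2 gap between 2 arrays of a label was 0.16 in wild type, 0.088 in heterozygous and 0.091 in homozygous cells over the 40 members, beside 0.20, 0.12 and 0.12 over the 8347 probes above the background reference on all 6 arrays. In wild type 5 of 40 members were over 0.5 apart, namely Psmb7, Psma8, Psmb8, Psmd13 and Psmd9, and 0 in the other labels. Of the same 8347 probes, 1037 were over 0.5 apart in wild type, 241 in heterozygous and 175 in homozygous cells. For gaps of this size the share of members in wild type was thus similar to that of these probes. Wild-type array 2 was the higher of the pair for 29 of 40 members, and for 13068 of the 20434 probes tested.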
